A study of Mus musculus with 2 samples.

Results

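Cycling leukocytes in the proximal small intestine of mice with acute epithelial loss of Apc were chosen by transcripts in the same droplet barcode. A member had at least 1 molecule (unique molecular identifier, UMI) of Ptprc, which encodes the pan-leukocyte phosphatase CD45, and at least 3 UMIs of Mki67 and Top2a together, the gate, which encode the proliferation antigen Ki-67 and DNA topoisomerase II alpha. Of 14898 barcodes that passed the filters, 288 were members, 185 in mouse 1 and 103 in mouse 2. They held plasma-marked, T-marked and myeloid-marked barcodes and a single B-marked barcode. They are compared with Ptprc-positive barcodes that had no gate UMI, called non-cycling, and with 99 gated barcodes that held Epcam, the epithelial adhesion molecule, but no Ptprc.

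Both animals belonged to 1 group with the genotype VilCreER Apc fl/fl, and their age is not given in the sources used here. They received 2 injections of 2 mg tamoxifen 24 h apart and were sampled on day 4. Villin drives the recombinase in intestinal epithelium, and no animal without the alleles or without tamoxifen was analysed here, so no value bears on the effect of Apc loss. Each mouse gave 1 single-cell library of live cells, so n = 2 mice throughout and the p-values measure only the spread between these animals.

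Leukocytes divide in several settings in the gut. T cells expand after antigen encounter, plasmablasts divide while they already secrete antibody, and macrophages and dendritic cell precursors can renew locally. Dividing cells need nucleotides, one-carbon units and ribosomes, and D-type cyclins bring them into the cycle. Ccnd1 is a classical target of Wnt signalling in epithelium, whereas Ccnd2 and Ccnd3 are the usual D cyclins of blood cells.

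The libraries held 85670711 and 38716743 UMIs in 9645 and 8800 barcodes, of which 7941 and 6957 passed the filters with a median of 4381 and 2803 UMIs. Members were deeper, with a median of 23187 and 20751 UMIs. The libraries shared 24 barcode sequences, none of them a member. Transcripts of 5 acinar genes of the pancreas made 7619.6 CPM (UMIs scaled to 1000000 UMIs of the sum) in the members of mouse 1 and 13.5 CPM in those of mouse 2, and their part in the results was not tested. All adjusted p-values are from edgeR's quasi-likelihood test on UMIs summed per mouse and class, with Benjamini-Hochberg adjustment over all genes tested, and a difference is called at an adjusted p under 0.05. Fold changes are log2 values ± SE with TMM scaling, so they can differ from the ratio of CPM where immunoglobulin takes much of a sum. In such sums, fewer cells of a type and less RNA per cell cannot be told apart.

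Plasma-marked barcodes were the most frequent members in both mice at this gate. The lineage was read from Mzb1 and Derl3 (plasma), Cd3d, Cd3e and Cd3g (T), C1qa and Lyz2 (myeloid) and Ms4a1 (B), with at least 2 UMIs and 3 times those of the next lineage. In mouse 1, 100 members were plasma-marked (54.1%, exact binomial 95% interval 46.6 to 61.4%), and in mouse 2, 43 were (41.7%, 32.1 to 51.9%). T members numbered 24 (12.97%, 8.49 to 18.7%) and 31 (30.1%, 21.5 to 39.9%), and myeloid members 27 (14.6%, 9.84 to 20.5%) and 19 (18.4%, 11.5 to 27.3%). Markers of more than 1 lineage without a clear lead were present in 25 and 3 members, and 8 and 7 had too few marker UMIs of any lineage. Of the latter 15 members, 11 had an Epcam UMI and 8 held 5 or more keratin UMIs, and they were kept as members. The single B member, in mouse 1, held 43 Mki67 and 32 Top2a UMIs. T and myeloid members did not stand in the same order in the 2 animals, and their intervals overlapped within each mouse. The lead of plasma-marked members held under every setting in mouse 1 but not in mouse 2, where T members made 47.3% and plasma-marked members 29.95% at a gate of 2 UMIs, and where T and myeloid members made 34.0% each and plasma-marked members 26.0% without members of mixed lineage or with an Epcam UMI. Intervals cover counting error only.

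**Figure D1:**
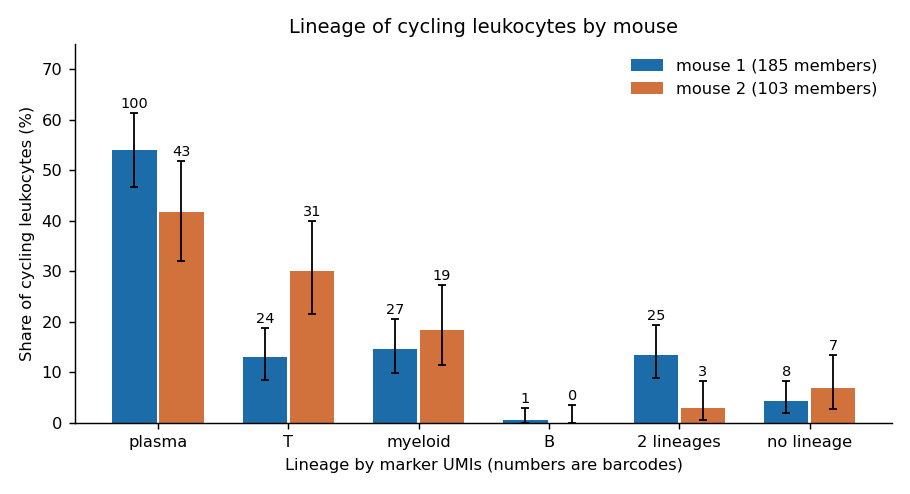
Share of cycling leukocytes (%, y axis) in each lineage class (x axis) for mouse 1 (185 members) and mouse 2 (103 members). Bars are shares, error bars exact binomial 95% intervals and the numbers above them barcodes; "2 lineages" marks members with markers of more than 1 lineage and no clear lead. Plasma-marked members were the most frequent class in both mice (54.1% and 41.7%).

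The members made 3.13% (2.70 to 3.61%, 185 of 5905) of Ptprc-positive barcodes in mouse 1 and 1.63% (1.33 to 1.97%, 103 of 6330) in mouse 2, and 65.4% and 76.9% of all gated barcodes. Another 161 and 104 Ptprc-positive barcodes lay just below the gate with 2 UMIs, while 48 and 24 members had exactly 3. On the Ptprc side, 33 and 11 members rested on a single Ptprc UMI, next to 98 and 31 gated barcodes with none.

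How far the word cycling held differed between lineages, as read from 29 genes of mitosis and its entry that the gate did not use. T members carried a median of 23 and 32 UMIs of these genes in mouse 1 and mouse 2, and myeloid members 22 and 45. Plasma-marked members carried a median of 4 in mouse 1 and 22 in mouse 2, and 67 of the 143 had fewer than 5, as did 14 of 55 T members and 3 of 46 myeloid members. Top2a was absent from 55 of the 143 plasma-marked members, which entered on Mki67 alone, from 13 of 55 T members and from 8 of 46 myeloid members.

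Mitotic transcripts were also compared along the gate. In plasma-marked barcodes of mouse 1 they made 0.467 per 10000 UMIs at 0 gate UMIs, 0.701 at 3 to 5 (55 members), 5.51 at 6 to 9 (11 members) and 27.5 at 10 or more (34 members). In mouse 2 the values were 0.528, 1.21 (18 members), 5.37 (3 members) and 39.6 (22 members). T members with 3 to 5 gate UMIs already held 10.4 and 20.7 per 10000, where non-cycling T barcodes held 1.79 and 1.96, and myeloid members held 9.28 and 18.6 against 1.66 and 1.44. By these pooled rates, plasma-marked members near the threshold lay close to non-cycling plasma cells, and T and myeloid members near it did not. The median member with 3 to 5 gate UMIs held 2 and 2 mitosis UMIs in plasma-marked, 2 and 4.5 in T and 6 and 9 in myeloid barcodes. Non-cycling medians were 1 and 1, 0 and 0, and 1 and 1. The pooled rate of T members near the threshold thus rested largely on part of these barcodes. Most of these bins hold under 20 members, and the values are given without a test.

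**Figure D2:**
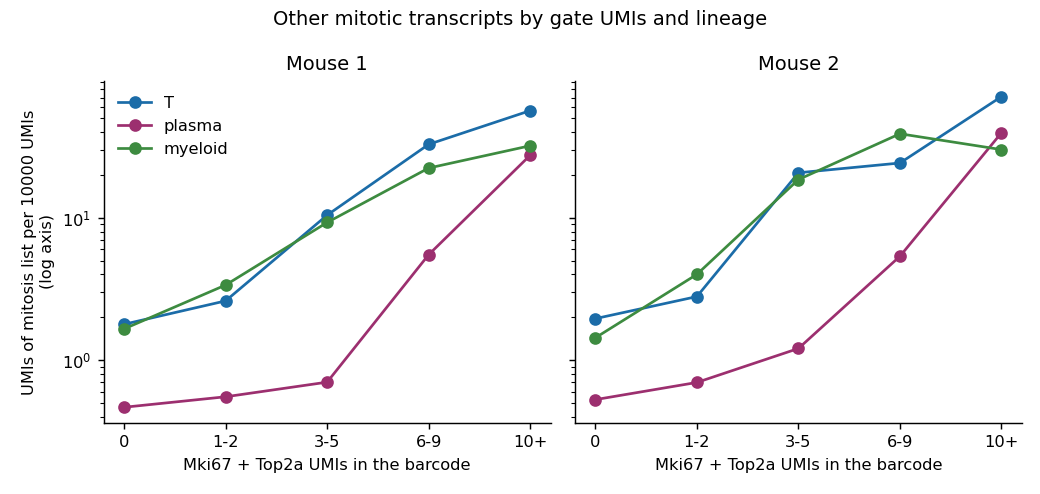
UMIs of the 29 mitosis genes per 10000 UMIs (y axis, log scale) in barcodes grouped by Mki67 and Top2a UMIs (x axis), for T, plasma-marked and myeloid barcodes, with 1 panel per mouse. In the bin of 3 to 5 gate UMIs the plasma-marked points (0.701 and 1.21) lie below the T points (10.4 and 20.7) and the myeloid points (9.28 and 18.6).

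The share of a lineage that passed the gate was also taken at one depth. As deposited, 0.800% and 0.599% of T barcodes were gated in mouse 1 and mouse 2, 6.33% and 9.56% of plasma-marked, 5.68% and 5.44% of myeloid, and 7.93% and 13.01% of epithelial barcodes. Barcodes with at least 2000 UMIs were then counted if they held 1 or more gate UMIs, first at their full depth and then after thinning each to 2000 UMIs. This left out shallower barcodes (315 and 1346 T, 8 and 2 plasma-marked, 73 and 43 myeloid, 165 and 43 epithelial). At full depth the share with a gate UMI was 9.72% (8.62 to 10.9%) and 9.93% (8.997 to 10.9%) for T and 26.6% (24.4 to 28.9%) and 31.5% (27.2 to 36.0%) for plasma-marked barcodes, and after thinning it was 5.32% (4.51 to 6.24%) and 6.32% (5.57 to 7.14%) for T and 4.71% (3.72 to 5.88%) and 8.93% (6.46 to 12.0%) for plasma-marked barcodes. With the gate and the barcodes held the same, the intervals of the 2 lineages lay apart at full depth and overlapped after thinning, in both mice. For myeloid barcodes the share went from 20.6% and 16.3% to 9.45% (6.78 to 12.7%) and 5.88% (3.52 to 9.14%), and for epithelial barcodes from 17.1% and 27.2% to 8.55% (6.26 to 11.3%) and 15.5% (9.15 to 24.0%). Thinning was 1 random draw, and the intervals do not cover the error of the draw. The shares expected over draws were 5.54% and 6.30% for T, 5.29% and 8.37% for plasma-marked and 8.70% and 7.33% for myeloid barcodes. In the draw and in the expected shares, the 3 leukocyte lineages did not stand in the same order in the 2 animals. The expected myeloid share lay above that of T barcodes in both mice, unlike the drawn one in mouse 2. A gate of 1 UMI is looser than that of the members, so these shares are not shares of members.

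T members carried the genes of cytotoxic T cells. Cd8a, the alpha chain of the CD8 co-receptor, had a UMI in 47 of 55 T members, Trdc, the constant region of the delta T-cell receptor chain, in 33, and Gzmb, the protease granzyme B, in 35. Cd4 had a UMI in 4 and Foxp3, the regulatory T-cell factor, in 2. As a background, plasma-marked members, which should lack Cd8a, had a Cd8a UMI in 25 of 143 at a median depth of 28820 and 28375 UMIs against 8720 and 10126 in T members. Igha, the IgA heavy chain, had a UMI in all 55 T members and all 46 myeloid members, which should lack it.

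Against non-cycling T cells, several surface and signalling genes were lower in T members. Cd8a stood at 423 and 522 CPM against 1056 and 1371 (log2 fold -1.32 ± 0.35, adjusted p = 0.0353). Abcb1a, which encodes a drug transporter, stood at 35.8 and 63.1 CPM against 195 and 266 (-2.15 ± 0.36, adjusted p = 0.00178), and Cd200r2, of the CD200 receptor family, at 35.8 and 22.7 against 147 and 199 (-2.55 ± 0.52, adjusted p = 0.0107). The adaptor gene Clnk (-2.04 ± 0.46, adjusted p = 0.0169), the tyrosine kinase gene Matk (-2.36 ± 0.53, adjusted p = 0.0163), Phf1 of chromatin (-2.54 ± 0.47, adjusted p = 0.00397) and Nlrc5, a transactivator of MHC class I genes (-1.93 ± 0.44, adjusted p = 0.0163), were lower too. The choice of genes outside the lists required the same direction in both mice, and both member sums of these genes lay below both non-cycling sums. Gzma, granzyme A, stood at 7874 and 9413 CPM against 15893 and 19378 and Gzmb at 534 and 600.4 against 1253 and 1455, and of 14 tested T-cell subset genes Cd8a alone passed.

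Genes of nucleotide synthesis were among those higher in T members. The gate chose barcodes by Mki67 and Top2a, so a rise of genes tied to the cell cycle was partly built in. This applies to Tk1, Dtymk, Ccne2 and the E2f genes in every contrast of cycling with non-cycling barcodes. Their p-values are no separate evidence beside the gate. Tk1, thymidine kinase, stood at 91.2 and 55.5 CPM against 1.32 and 1.58 (5.63 ± 0.41, adjusted p = 1.8e-06). Of 10 purine genes 3 were higher and none lower, namely Impdh2, of guanine nucleotide synthesis (111 and 111 CPM against 37.0 and 36.7, 1.62 ± 0.31, adjusted p = 0.00482), Atic (1.44 ± 0.30, adjusted p = 0.00891) and Paics (0.84 ± 0.22, adjusted p = 0.0289), both of de novo purine synthesis. Of 10 pyrimidine genes, Tk1, Uck2 (1.57 ± 0.35, adjusted p = 0.014) and Dtymk (1.37 ± 0.33, adjusted p = 0.0195) were higher and none lower. The nucleolar gene Npm1 stood at 1733 and 1511 CPM against 766 and 773 (1.11 ± 0.21, adjusted p = 0.00437) and was the only one called among 9 tested genes of the list of Myc and nucleolar genes. Of 18 genes of G1 cyclins and inhibitors 7 were higher and none lower, among them E2f1 (3.78 ± 0.81, adjusted p = 0.0132) and E2f2 (5.36 ± 0.49, adjusted p = 1.11e-05), which encode factors of entry into S phase. None of 12 tested methionine cycle genes passed in either direction. The medians of the purine, pyrimidine, nucleolar and G1 lists were 0.54, 0.58, 0.43 and 1.16, beside -0.10 over all genes.

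In this contrast 883 of 11056 genes (7.99%) passed, 697 higher (6.3%) and 186 lower (1.68%). The gate itself defines the contrast, so nothing is read from these counts. Blocking on the mouse gave 1421 genes, and 150 passed without mouse 1 and 185 without mouse 2. The split moved under other settings, with 506 higher and 661 lower at a gate of 5 UMIs, 526 higher and 509 lower without barcodes with a Siglech UMI and 624 higher and 342 lower without immunoglobulin genes.

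T members also carried transcripts of other cell types. Epcam had a UMI in 27 of 55, and 9 of 55 held 5 or more keratin UMIs. Non-cycling T barcodes had an Epcam UMI in 641 of 2727 and 1063 of 4720, and 33 and 18 held 5 or more keratin UMIs. They were shallower, with a median of 3250 and 2557.5 UMIs against 8720 and 10126 in T members. The 10 listed epithelial markers summed to 2870 and 1403 CPM in T members and to 722 and 401 CPM in non-cycling T cells, with none of the 10 at 0, and Krt18 stood at 303 and 10.1 CPM against 8.87 and 2.41. The 8 dendritic markers summed to 238 and 232 CPM against 66.1 and 72.5, with 3 and 2 of the 8 at 0 in members. Flt3, of dendritic cell precursors, stood at 42.3 and 25.2 CPM against 1.43 and 1.81 (4.35 ± 0.91, adjusted p = 0.013), and Cd74, the class II invariant chain, at 6792 and 2911 against 611 and 209 (3.58 ± 0.98, adjusted p = 0.0397).

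When members with an Epcam UMI and members of mixed lineage were left out, 11 and 17 T members remained and 289 genes passed. Cd74 (2.12, adjusted p = 0.44), Flt3 (2.95, adjusted p = 0.367), Npm1 (0.59, adjusted p = 0.283), Impdh2 (1.28, adjusted p = 0.0764), Atic (0.97, adjusted p = 0.255) and Cd8a (-1.16, adjusted p = 0.132) then missed the threshold. Tk1 (5.14, adjusted p = 1.81e-05), E2f2 (5.25, adjusted p = 0.000239), Abcb1a (-2.002, adjusted p = 0.00389), Clnk (-3.26, adjusted p = 0.0228), Matk (-2.55, adjusted p = 0.0458) and Cd200r2 (-3.58, adjusted p = 0.0279) passed. Paics (0.227), Uck2 (0.365), Dtymk (0.255), E2f1 (0.164), Phf1 (0.0628) and Nlrc5 (0.134) missed it by the adjusted p in brackets. That setting leaves non-cycling T cells with an Epcam UMI in place. When these were left out as well, a setting chosen after seeing the data, 340 genes passed, the calls of these genes were the same except that Phf1 passed (-2.58, adjusted p = 0.046), and Cd74 stood at 3.52, adjusted p = 0.14.

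Plasma-marked members carried the genes of IgA plasma cells. Igha had a UMI in all 143, and Ccr10, the mucosal homing receptor of IgA plasma cells, and Sdc1, syndecan-1, each in 134, whereas Ccr10 had a UMI in 0 of 55 T members, which allows a share of T members with a Ccr10 UMI of up to 5.45% at their lower depth.

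Igha and Jchain differed between plasma-marked members with more and with fewer mitotic transcripts. In the 38 and 26 members with 10 or more mitosis UMIs, Igha stood at 74018 and 75168 CPM, against 135434 and 154348 in those with fewer and 155136 and 176975 in non-cycling plasma cells. Jchain, the joining chain of polymeric antibody, stood at 26381 and 25489, then 55766 and 60451, then 60752 and 67274 CPM. Both were lowest in the members with the most mitotic transcripts, in both mice. Npm1 ran the other way, at 862 and 797, then 206 and 204, then 163 and 175 CPM. Ncl, nucleolin, stood at 718 and 481, then 158 and 151, then 117 and 102 CPM. The groups were formed on cell cycle transcripts within the members, and the genes were chosen after their values were seen, so these values are given without a test. Over all plasma-marked members against non-cycling plasma cells, neither Igha (-1.31 ± 1.13, adjusted p = 0.629) nor Jchain (-1.31 ± 1.18, adjusted p = 0.643) passed.

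Some nucleolar and one-carbon genes were higher in plasma-marked members than in non-cycling plasma cells. Of 9 genes tested of the list of Myc and nucleolar genes 5 were higher and none lower, including Nop58 of small nucleolar particles (70.5 and 73.7 CPM against 19.9 and 17.3, 1.27 ± 0.27, adjusted p = 0.0151), the pseudouridine synthase gene Dkc1 (1.31 ± 0.33, adjusted p = 0.0376) and Ncl (371 and 372 CPM against 117 and 102, 1.08 ± 0.25, adjusted p = 0.0278). Of 9 folate and serine genes 3 were higher and none lower: Shmt1, cytosolic serine hydroxymethyltransferase, at 8.74 and 9.12 CPM against 0.526 and 0 (3.77 ± 0.69, adjusted p = 0.00485), Psat1 of serine synthesis (2.08 ± 0.51, adjusted p = 0.0363) and Mthfd1 of the folate cycle (1.48 ± 0.34, adjusted p = 0.0259). Tk1 (2.09 ± 0.35, adjusted p = 0.00218), Dtymk (1.76 ± 0.33, adjusted p = 0.00504), Impdh2 (1.16 ± 0.30, adjusted p = 0.049) and Atic (1.11 ± 0.29, adjusted p = 0.0452) were higher too. The median of the nucleolar list was 0.95 and that of the folate list 0.51, beside -0.14 over all genes. None of 12 tested methionine cycle genes passed. E2f8, an E2F repressor, had no UMI in 32746284 UMIs of non-cycling plasma cells and 56 UMIs in the members, at least 132-fold higher against a floor of 3 UMIs over both mice.

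In this contrast 399 of 11056 genes (3.61%) passed, 333 higher (3.01%) and 66 lower (0.597%), and nothing is read from these counts. Blocking on the mouse gave 629 genes, and 217 passed without mouse 1 and 130 without mouse 2. With a gate of 2 UMIs, Ncl (0.80, adjusted p = 0.346) and Nop58 (0.99, adjusted p = 0.148) missed the threshold, and Shmt1 (3.24, adjusted p = 0.0273) and Tk1 (1.75, adjusted p = 0.0172) passed it. Epcam had a UMI in 103 of 143 plasma-marked members, and 6 held 5 or more keratin UMIs. Non-cycling plasma-marked barcodes had an Epcam UMI in 735 of 1161 and 187 of 308. When members of mixed lineage or with an Epcam UMI were left out, 27 and 13 plasma-marked members remained and 243 genes passed. The calls of single plasma genes under that setting are not given here.

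Some genes lower in plasma-marked members are those of plasmacytoid dendritic cells, a type that also expresses Mzb1 and Derl3. Siglech, a surface lectin of plasmacytoid dendritic cells, had a UMI in 32 of 1161 (2.76%) and 36 of 308 (11.7%) non-cycling plasma-marked barcodes and in 1 of 100 and 0 of 43 members. Ccnd1 stood at 2.41 and 3.799 CPM in members against 9.70 and 29.8 (-3.37 ± 0.51, adjusted p = 0.001), and Tyrobp, a signalling adaptor of myeloid cells, at 31.3 and 12.2 against 55.1 and 203 (-3.14 ± 0.62, adjusted p = 0.00849). With barcodes that hold a Siglech UMI left out, a setting chosen after seeing the data, Ccnd1 was at 0.04, adjusted p = 0.991 and Tyrobp at 0.41, adjusted p = 0.807. Grn, granulin, was lower with and without them (24.1 and 12.2 CPM against 53.1 and 79.2, -2.45 ± 0.39, adjusted p = 0.00135, and -2.03, adjusted p = 0.00577). Ypel3 was lower in members as well (36.1 and 26.6 CPM against 51.9 and 56.5, -1.43 ± 0.22, adjusted p = 0.00125).

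Myeloid members held few or no transcripts of several monocyte genes. Ly6c2, the monocyte antigen Ly6C, stood at 8.89 and 0 CPM in members and 254 and 273 CPM in non-cycling myeloid barcodes (log2 fold -5.92 ± 1.07, adjusted p = 0.00588). F13a1, Clec4e and G0s2, known from monocytes and neutrophils, had no UMI among 782804 UMIs of the members, which against a floor of 3 UMIs over both mice made them at least 29.6-fold, 19.2-fold and 20.8-fold lower. Vcan, versican, stood at 0 and 6.01 CPM against 103 and 146. Thbs1, thrombospondin 1, stood at 11.1 and 30.03 against 410.0 and 887 (-5.25 ± 1.05, adjusted p = 0.00983), and Cd14, the endotoxin co-receptor, at 129 and 132 against 519.8 and 572 (-2.27 ± 0.52, adjusted p = 0.0305). The genes named were chosen for the same direction in both mice, and both member sums lay below both non-cycling sums.

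Of 10 listed myeloid genes 2 were lower, Ly6c2 and Cd14, and none higher. Csf1r, the receptor for macrophage colony-stimulating factor, stood at 231 and 456 CPM in members and 567 and 511 in non-cycling barcodes (-0.86 ± 0.49, adjusted p = 0.491), and Adgre1, the macrophage antigen F4/80, at 46.7 and 135 against 73.7 and 76.1 (0.04 ± 0.48, adjusted p = 0.989). Itgax, the integrin CD11c, stood at 369 and 285 against 255 and 213. C1qa, a complement component of macrophages and part of the lineage rule, stood at 1605 and 3432 against 2013 and 1023, higher in members in mouse 2 and lower in mouse 1. C1qa had a UMI in 16 of 27 myeloid members of mouse 1 and 18 of 19 of mouse 2, and Itgax in 23 and 17. Xcr1, the chemokine receptor of type 1 dendritic cells, had 28 and 7 UMIs in members, from 3 barcodes, and 0 and 0 in non-cycling myeloid barcodes. Flt3 had a UMI in 12 of 27 myeloid members of mouse 1 and 1 of 19 of mouse 2. The 8 dendritic markers summed to 596 and 378 CPM in members and 332 and 260 CPM in non-cycling barcodes, with 1 and 1 of the 8 at 0 in members.

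**Figure D3:**
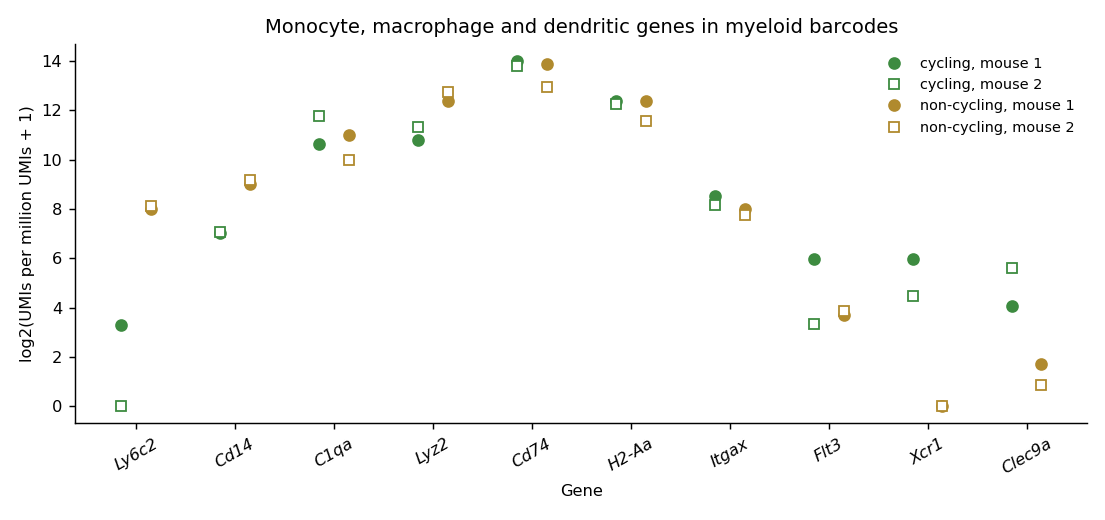
Levels, as log2(CPM + 1) on the y axis, of monocyte, macrophage, class II and dendritic genes (x axis) in cycling and non-cycling myeloid barcodes of each mouse, each point 1 sum per mouse. The Ly6c2 and Cd14 points of cycling barcodes lie below those of non-cycling barcodes in both mice, and the Itgax points of cycling barcodes lie slightly above.

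Fewer metabolic genes passed in myeloid members, but whether the lineages differ in these genes was not tested. The sums of myeloid members held 449759 and 333045 UMIs. Those of plasma-marked members held 3319643 and 1316239, and those of T members 306969 and 396383. Tk1 (5.48 ± 0.46, adjusted p = 1.9e-05), Dtymk (1.42 ± 0.33, adjusted p = 0.0271) and Shmt2, mitochondrial serine hydroxymethyltransferase (24.5 and 57.0 CPM against 9.50 and 11.7, 1.70 ± 0.41, adjusted p = 0.0338), were higher, and none of 9 nucleolar, 10 purine or 12 methionine cycle genes passed in either direction. Ccne2, cyclin E2 (5.12 ± 0.83, adjusted p = 0.00276), and Cdkn2c, the inhibitor p18 (3.19 ± 0.63, adjusted p = 0.00894), were higher. Xbp1 (-1.41 ± 0.29, adjusted p = 0.0113) and Gzma (-1.99 ± 0.40, adjusted p = 0.0103), genes of plasma and T cells, were lower. In this contrast 373 of 11056 genes (3.37%) passed, 264 higher (2.39%) and 109 lower (0.986%), with 100 without mouse 1 and 89 without mouse 2. Cd14 missed the threshold without members of mixed lineage or with an Epcam UMI (-1.68, adjusted p = 0.305), and Ly6c2 was called in 13 of 13 settings that kept both mice.

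Cycling leukocytes of all lineages were summed and set against gated epithelial barcodes. In that sum 8 of 9 nucleolar and 6 of 14 methionine cycle genes tested were lower. Of folate and serine genes 3 of 9 were lower, and none of these genes was higher. Of the 99 gated barcodes with Epcam and no Ptprc, 72 had under 2 marker UMIs of any lineage, called without lineage markers, and 19 were plasma-marked. The plasma-marked ones held 465219 of 1651534 UMIs of the gated epithelial sum in mouse 1 and 74751 of 549342 in mouse 2. In this contrast 2899 of 11693 genes (24.8%) passed, 1702 higher (14.6%) and 1197 lower (10.2%) in leukocytes, so the counts in the lists stand beside 10.2% lower. Ptprc, Epcam and the gate genes define the contrast and are not results.

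Of the 9 tested genes of the list of Myc and nucleolar genes 8 were lower and none higher, with a list median of -1.20 beside 0.08 over all genes. Npm1, nucleophosmin (chr11:33152287-33163206, mm10), stood at 766 and 919.5 CPM in leukocytes and 2731 and 3652 in epithelium (log2 fold -1.55 ± 0.19, adjusted p = 0.00306), and Ncl at 558 and 583 against 1751 and 2181 (-1.41 ± 0.20, adjusted p = 0.005). Myc (chr15:61985391-61990374), a transcription factor that drives many nucleolar genes, stood at 16.0 and 19.8 against 45.4 and 89.2 (-1.49 ± 0.29, adjusted p = 0.0126). The sums of the 2 classes did not overlap in any of these genes.

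Of 14 tested methionine cycle genes 6 were lower and none higher (median -0.83). Ahcy (chr2:155059310-155074497), which hydrolyses S-adenosylhomocysteine, stood at 6.16 and 3.14 CPM in cycling leukocytes and 21.8 and 34.6 in cycling epithelium, from 30 and 7 UMIs against 36 and 19 (-2.08 ± 0.51, adjusted p = 0.0242). Mat2a, which makes S-adenosylmethionine, stood at 48.3 and 64.7 against 112 and 157 (-0.88 ± 0.20, adjusted p = 0.0209). Amd1 of polyamine synthesis (-1.495 ± 0.29, adjusted p = 0.0126) and Cth of transsulfuration (-3.10 ± 0.84, adjusted p = 0.0338) were lower too, whereas Mtr, methionine synthase, did not pass (1.14 ± 0.46, adjusted p = 0.107) without the block on the mouse and was higher with it (1.12, adjusted p = 0.0357). Gm4737, annotated as a separate Ahcy-like locus that could share reads, stood at 0.205 and 0.449 CPM in leukocytes and 0 and 0 in epithelium.

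The folate and serine genes that were lower (list median -0.21) were Mthfd1 (17.5 and 18.0 CPM against 64.2 and 80.1, -1.64 ± 0.26, adjusted p = 0.00678), Shmt1 (-1.92 ± 0.37, adjusted p = 0.0123) and Mthfd2l (-2.74 ± 0.49, adjusted p = 0.0097). Of 10 purine genes 4 were lower and none higher, among them Gart (-1.25 ± 0.25, adjusted p = 0.0141), Impdh2 (-1.16 ± 0.23, adjusted p = 0.0134) and Atic (-0.98 ± 0.26, adjusted p = 0.0331), and of 10 pyrimidine genes 2, Dctd (-1.99 ± 0.45, adjusted p = 0.0199) and Dtymk (-1.19 ± 0.32, adjusted p = 0.0338). Cad (chr5:31054780-31078479), the first enzyme of pyrimidine synthesis, did not pass (-0.34 ± 0.27, adjusted p = 0.383), nor did Odc1, ornithine decarboxylase (-0.20 ± 0.36, adjusted p = 0.721). In the cell cycle lists 1 of 29 mitosis genes was higher (Cenpe, 1.63 ± 0.38, adjusted p = 0.0215) and 2 were lower (Plk1, -1.16 ± 0.33, adjusted p = 0.038, and Cks2, -1.24 ± 0.31, adjusted p = 0.027), and 1 of 26 replication genes was lower (Hells, -1.33 ± 0.30, adjusted p = 0.0195).

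D-type cyclins differed in direction. Ccnd1 (chr7:144929931-144939925) stood at 27.3 and 41.3 CPM in cycling leukocytes against 163 and 308 in epithelium (-2.39 ± 0.30, adjusted p = 0.0034), while Ccnd3 (chr17:47505051-47599691) stood at 32.5 and 30.5 against 15.7 and 10.9 (1.499 ± 0.33, adjusted p = 0.0193). Ccnd2 (chr6:127125162-127152193) did not pass (-0.51 ± 0.35, adjusted p = 0.317). Cdkn2d, the inhibitor p19, was higher in leukocytes (18.3 and 20.2 against 4.24 and 1.82 CPM, 2.74 ± 0.44, adjusted p = 0.00699) and Cdkn1a, p21, lower (27.9 and 22.5 against 71.4 and 177, -1.83 ± 0.39, adjusted p = 0.0164). Of 13 tested Wnt target genes 6 were lower and none higher, including Sox9 (10.9 and 7.64 against 142 and 273 CPM, -4.02 ± 0.55, adjusted p = 0.00415) and Ascl2 (-3.95 ± 0.59, adjusted p = 0.00566). Ccnd3 missed the threshold when members of mixed lineage or with an Epcam UMI were left out (0.90, adjusted p = 0.116).

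Outside the lists, immunoglobulin genes were left out and at least 50 CPM in both mice in the higher class was required. Among the genes that remained, those with the most extreme differences were of myeloid cells on one side and of epithelium on the other. Ly86, of the RP105 receptor complex, stood at 92.7 and 121 CPM in leukocytes against 0.605 and 0, and Mpeg1, perforin-2 of macrophages, at 52.6 and 171 against 0.605 and 1.82. Ccl24, a chemokine for eosinophils, had 732 UMIs in leukocytes and none in gated epithelium, at least 75.7-fold higher against a floor of 3 UMIs over both mice. Olfm4, of crypt base cells, stood at 31.6 and 3.14 CPM against 349 and 573, and Agr2, of secretory cells, at 14.4 and 0 against 738 and 175.

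Npm1 and Myc were lower in each of the 3 lineages when it was set against gated epithelial barcodes without lineage markers. The 3 comparisons share the epithelial sums. Npm1 stood at 4032 and 3915 CPM in that epithelium, 1733 and 1511 in T (-1.48 ± 0.21, adjusted p = 0.000241), 455 and 600.2 in plasma-marked (-1.88 ± 0.21, adjusted p = 2.44e-05) and 1425 and 1102 in myeloid members (-1.69 ± 0.21, adjusted p = 7.67e-05). Myc stood at 72.9 and 113 CPM in that epithelium, 35.8 and 27.8 in T (-1.71 ± 0.34, adjusted p = 0.00293), 6.02 and 10.6 in plasma-marked (-2.48 ± 0.33, adjusted p = 9.19e-05) and 35.6 and 27.0 in myeloid members (-1.56 ± 0.34, adjusted p = 0.00391). Of 9 tested genes of that list 8, 7 and 6 were lower in T, plasma-marked and myeloid members and none higher, where 9.88%, 14.8% and 12.5% of 11056 genes were lower and 14.7%, 18.1% and 16.8% higher.

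Ahcy stood at 29.6 and 41.0 CPM in that epithelium and rested on few UMIs in each lineage. It had 4 and 1 UMIs in T members (13.03 and 2.52 CPM, -2.43 ± 0.89, adjusted p = 0.0606), 11 and 5 in plasma-marked members (3.31 and 3.799 CPM, -2.24 ± 0.74, adjusted p = 0.032) and 5 and 0 in myeloid members (11.1 and 0 CPM, -2.51 ± 0.89, adjusted p = 0.0467). The difference passed the threshold in plasma-marked and myeloid members and missed it in T members. Mat2a was lower in T (-0.85 ± 0.25, adjusted p = 0.0239) and plasma-marked members (-0.96 ± 0.24, adjusted p = 0.00699) and stood at -0.52 ± 0.24, adjusted p = 0.122 in myeloid members.

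Other genes gave different calls in the 3 lineages. Ccnd3 was higher than in epithelium in T members (84.7 and 88.3 CPM against 20.5 and 10.2, 2.18 ± 0.36, adjusted p = 0.000836) and myeloid members (1.16 ± 0.39, adjusted p = 0.0389), and plasma-marked members stood at 14.5 and 9.88 CPM (0.64 ± 0.37, adjusted p = 0.202). Ccnd1 was lower in T (-2.22 ± 0.42, adjusted p = 0.00201), plasma-marked (-5.70 ± 0.52, adjusted p = 5.06e-06) and myeloid members (-1.74 ± 0.41, adjusted p = 0.00654). Cad was lower in T members (-1.27 ± 0.40, adjusted p = 0.0335) and stood at 0.08 ± 0.32, adjusted p = 0.898 in plasma-marked and -0.44 ± 0.37, adjusted p = 0.403 in myeloid members. Of 12 tested methionine cycle genes 5, 7 and 5 were lower in T, plasma-marked and myeloid members and 0, 1 and 1 higher. Higher were Srm in plasma-marked (1.30 ± 0.36, adjusted p = 0.014) and Mtr in myeloid members (2.09 ± 0.59, adjusted p = 0.017). Of 9 folate and serine genes 3, 3 and 4 were lower and 0, 1 and 0 higher. The higher one was Psph in plasma-marked members (1.65 ± 0.39, adjusted p = 0.00583). The shares over all genes are those given above. Whether the lineages differ from each other in these genes was not tested.

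**Figure D4:**
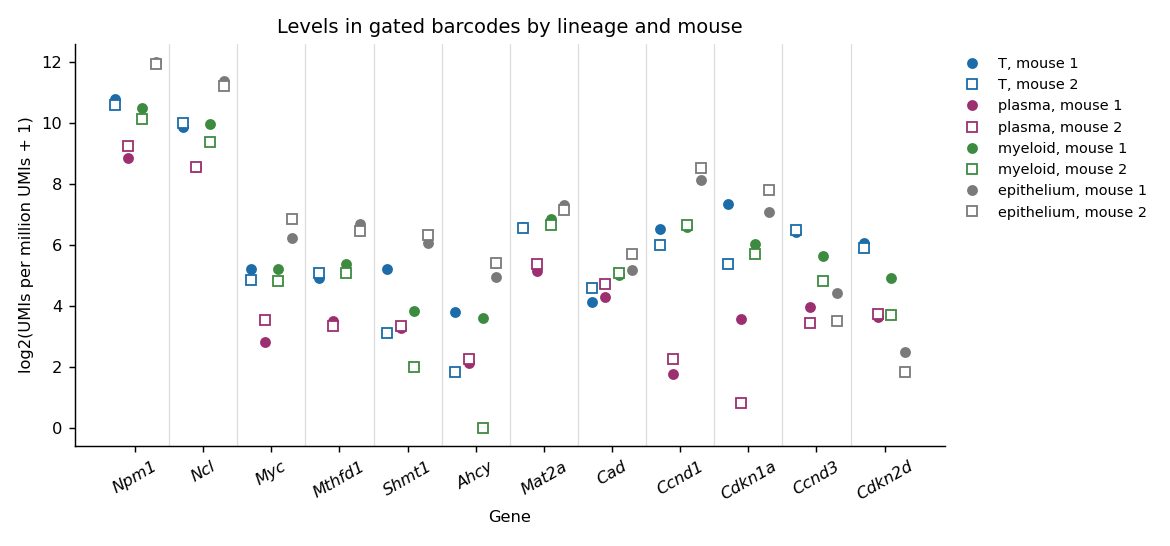
Levels, as log2(CPM + 1) on the y axis, of 12 genes (x axis) in gated T, plasma-marked, myeloid and epithelial barcodes without lineage markers; filled points are mouse 1 and open points mouse 2. Npm1, Ncl, Myc, Mthfd1, Shmt1, Mat2a, Ahcy and Ccnd1 were highest in epithelium in both mice, and Ccnd3 and Cdkn2d in T cells.

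Leaving out a mouse leaves 1 sum per class, with the spread taken from the other classes. Between cycling leukocytes and cycling epithelium 194 genes then passed without mouse 1 and 104 without mouse 2. Ahcy stood at -3.02, adjusted p = 0.107 without mouse 1 and -1.42, adjusted p = 0.296 without mouse 2. Npm1 stood at -1.56, adjusted p = 0.11 and -1.43, adjusted p = 0.167, and Ccnd1 at -2.46, adjusted p = 0.0685 and -2.17, adjusted p = 0.0871. Ahcy, Npm1 and Ccnd1 kept their sign and missed the threshold without either mouse.

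The change from non-cycling to cycling barcodes was then compared between each leukocyte lineage and epithelium, for 9 genes of methionine, pyrimidine and polyamine metabolism, Myc and the D cyclins. The 3 differences share the epithelial sums. Cad stood at 35.3 and 51.2 CPM in gated epithelium and 2.26 and 3.09 in epithelium without gate UMIs (3.58 ± 0.43, adjusted p = 8.54e-05), from 8 and 2 UMIs in the latter. It stood at 16.3 and 22.7 against 16.3 and 20.2 CPM in T cells (0.16 ± 0.39, adjusted p = 0.857), 18.7 and 25.1 against 12.3 and 14.2 in plasma-marked cells (0.03 ± 0.30, adjusted p = 0.992) and 31.1 and 33.0 against 12.5 and 10.4 in myeloid cells (1.27 ± 0.37, adjusted p = 0.0894). In epithelium 28.7% of genes passed, 10.3% higher and 18.3% lower. Some genes had no UMI among 1268146 UMIs of gated epithelium but many in epithelium without gate UMIs. Among them were Leap2 (3372 UMIs), Tm6sf2 (705) and Hsd17b6 (627). The 2 epithelial classes may thus differ in cell type as well as in cycling, and these cannot be told apart in the epithelial change of any gene below.

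The difference from epithelium in the change of Cad was -3.42 ± 0.57, adjusted p = 0.00361 for T cells, -3.55 ± 0.52, adjusted p = 0.00382 for plasma-marked cells and -2.31 ± 0.57, adjusted p = 0.0363 for myeloid cells. It was called in 13 of 13, 13 of 13 and 10 of 13 settings that kept both mice. Without mouse 1 it was -3.97, adjusted p = 0.153 for T, -3.76, adjusted p = 0.199 for plasma-marked and -2.69, adjusted p = 0.336 for myeloid cells, and without mouse 2 -3.85, adjusted p = 0.0914, -3.44, adjusted p = 0.0808 and -2.59, adjusted p = 0.304.

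Ahcy was higher in cycling than in non-cycling epithelium (29.6 and 41.0 against 5.08 and 7.72 CPM, 2.09 ± 0.73, adjusted p = 0.0447). In leukocytes its change was 1.45 ± 1.00, adjusted p = 0.411 in T, 1.37 ± 0.78, adjusted p = 0.437 in plasma-marked and 0.71 ± 1.02, adjusted p = 0.821 in myeloid cells, and the differences from epithelium were -0.64 ± 1.20, adjusted p = 0.812, -0.71 ± 1.07, adjusted p = 0.773 and -1.37 ± 1.22, adjusted p = 0.613. At this depth a change like that of epithelium and no change could not be told apart in any of the 3 lineages. Myc was higher in cycling epithelium (1.57 ± 0.31, adjusted p = 0.00213), and its change in myeloid cells (35.6 and 27.0 against 30.5 and 33.7 CPM) differed from that by -1.80 ± 0.45, adjusted p = 0.0392.

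Ccnd1 gave changes of either sign. T members stood at 91.2 and 63.1 CPM against 7.13 and 5.79 in non-cycling T cells (3.59 ± 0.45, adjusted p = 0.000188), and epithelium at 275 and 361 against 80.2 and 74.1 (1.59 ± 0.39, adjusted p = 0.008), a difference of 2.01 ± 0.58, adjusted p = 0.0398. Without T members that had an Epcam UMI or mixed lineage, the change in T cells was 0.03, adjusted p = 0.998 and the difference from epithelium -1.57, adjusted p = 0.522. With such barcodes left out of non-cycling T cells too, they were 0.18, adjusted p = 0.966 and -1.41, adjusted p = 0.584. In plasma-marked cells the difference from epithelium was -4.95 ± 0.65, adjusted p = 0.00228, and without barcodes with a Siglech UMI it was -1.71, adjusted p = 0.144. Ccnd2 in plasma-marked cells (105 and 110.2 against 58.6 and 51.5 CPM) differed from epithelium by 1.78 ± 0.42, adjusted p = 0.0272, where epithelium itself changed by -1.497 ± 0.30, adjusted p = 0.00231. Odc1 stood at 1.65 ± 0.49, adjusted p = 0.0541 in T members, and at 1.65, adjusted p = 0.0159 with the block on the mouse.

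**Figure D5:**
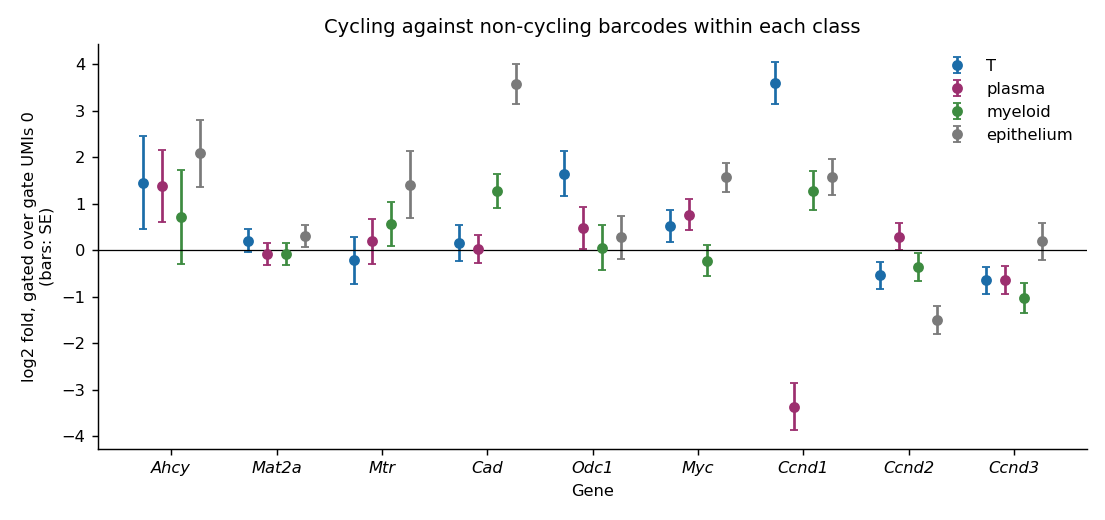
Log2 fold of cycling over non-cycling barcodes (y axis) for 9 genes (x axis) in T, plasma-marked, myeloid and epithelial barcodes; points are edgeR estimates over 2 mice and bars their SE. Cad is at 3.58 in epithelium and between 0.03 and 1.27 in the 3 leukocyte lineages. Ccnd1 is at 3.59 in T barcodes and -3.37 in plasma-marked barcodes, and leaving out members with an Epcam UMI or mixed lineage, or barcodes with a Siglech UMI, moved these to 0.03 and 0.04.

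Among all genes, 1169 (10.6%) differed between T cells and epithelium in this change, 863 higher (7.81%) and 306 lower (2.77%). Between plasma-marked cells and epithelium 570 (5.16%) did, 442 higher (4%) and 128 lower (1.16%), and between myeloid cells and epithelium 485 (4.39%) did, 271 higher (2.45%) and 214 lower (1.94%). Blocking on the mouse gave 1755, 1108 and 793. The split moved with several settings, and the cause was not tested. For T cells it was 376 higher and 510 lower at a gate of 2 UMIs, 395 higher and 502 lower at a gate of 5 UMIs, 495 higher and 567 lower without barcodes with a Siglech UMI and 373 higher and 444 lower with the compared classes alone in the model. Without immunoglobulin genes it was, for T, plasma-marked and myeloid cells, 539 higher and 730 lower, 282 higher and 383 lower, and 158 higher and 452 lower, and the median of all genes moved from 0.28, 0.23 and 0.14 to -0.16, -0.12 and -0.24. In epithelium itself it moved from 1143 higher and 2025 lower to 1628 higher and 1377 lower. Without mouse 1 the 3 counts were 13, 4 and 0, and without mouse 2 they were 34, 3 and 1.

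Taken over all leukocytes, the comparison of cycling with non-cycling barcodes mixed these lineages. T barcodes made 2727 of 5024 non-cycling Ptprc-positive barcodes in mouse 1 and 24 of 185 members, and 4720 of 5643 against 31 of 103 in mouse 2. Genes of T cells were lower in members, such as Ccl5, a chemokine (841 and 1579 against 4432 and 11386 CPM, -2.46 ± 0.49, adjusted p = 0.0331), and Itga1, an integrin of intraepithelial lymphocytes (-2.83 ± 0.50, adjusted p = 0.0221). Higher were Tk1 (4.10 ± 0.39, adjusted p = 0.0013), Shmt1 (3.71 ± 0.39, adjusted p = 0.00199), Uck2 (1.46 ± 0.25, adjusted p = 0.0205), Impdh2 (1.26 ± 0.23, adjusted p = 0.0234) and Npm1 (0.94 ± 0.19, adjusted p = 0.0337), and Ahcy did not pass (6.16 and 3.14 against 1.96 and 1.68 CPM, 1.58 ± 0.49, adjusted p = 0.103). In this mixed contrast 609 of 11693 genes (5.21%) passed, 444 higher (3.8%) and 165 lower (1.41%). Blocking on the mouse gave 1811, with Ccnd3 (-0.99, adjusted p = 0.0416) and Odc1 (1.14, adjusted p = 0.0342) among them, and 173 passed without mouse 1 and 105 without mouse 2.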

How the data were processed

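Small-intestinal segments of 2 mice were chopped and enzymatically dissociated, freed of debris and sorted to remove dead cells, and 10x Chromium 3′ v3 libraries were sequenced on an Illumina NovaSeq instrument. The deposited matrices hold raw UMI counts per gene and barcode (Cell Ranger 6.1.2, aligned by the authors to mm10). No removal of doublets is described, and doublets were kept. Barcodes with over 100 genes, over 400 UMIs, under 5% mitochondrial and under 10% haemoglobin UMIs were used, with 31053 genes in the table.

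UMIs were summed per mouse and class and tested with edgeR 4.0.16 in R 4.3.3 (quasi-likelihood, TMM scaling, filterByExpr, two-sided, without a replicate block). One model held cycling and non-cycling leukocytes and epithelium (8 sums, 4 residual degrees of freedom). A second held each lineage by state, for classes with at least 10 barcodes in both mice (18 sums, 9 residual degrees of freedom), with epithelium restricted to barcodes without lineage markers. B cells could not be fitted (1 and 0 members). CPM are UMIs scaled to 1000000 UMIs of a sum. Same-numbered sums come from the same animal, and their deviations from class means correlated at 0.319 to 0.731 in the first model and 0.0779 to 0.652 in the second, over 42 correlations. DESeq2 1.42.0, other filters, gates and class definitions, and fits without either mouse were the alternatives. With 2 mice, p-values measure only the spread between them, and intervals cover counting error only.

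In each comparison the genes named were 9 fixed ones (Ahcy, Mat2a, Mtr, Myc, Ccnd1, Ccnd2, Ccnd3, Cad and Odc1), up to 3 called genes of each list with the largest change in the same direction in both mice, and, outside the lists, up to 6 such genes in each direction with at least 50 CPM in both mice in the higher class. Genes that the rule used carry no p, and the mitosis and replication lists carry none in the contrasts of cycling with non-cycling barcodes. Tk1, Dtymk, Ccne2 and the E2f genes stand in other lists and carry one there, though the gate also favours them. Some genes at or near 0 in a class are given by levels or bounds. Others, such as Ly6c2 and Ahcy in myeloid members and Shmt1 in non-cycling plasma cells, carry log2 folds resting on few or no UMIs. The size of such folds is not well measured. The choice outside the lists left out symbols starting Igh, Igk, Igl, Gm or mt- and those ending Rik, so no immunoglobulin gene could be named by it. Other genes (marker levels, Siglech, Xcr1, genes by mitosis UMIs) were chosen after their values were seen. Some genes are not reported here. The members, lists and tests were chosen with earlier results of these data known. In simulated counts for cycling leukocytes against cycling epithelium (11693 genes), 42 to 64 of 100 genes changed by 2 on the log2 scale and 4 to 7 of 100 changed by 1 were recovered, with 3 to 4 false calls. For cycling against non-cycling T cells (11056 genes) these were 57 to 67, 1 to 10 and 0 to 3, and for plasma-marked cells (11056 genes) 79 to 88, 5 to 17 and 2 to 6. Gene positions are from GENCODE on mm10. Python 3.11.15, numpy 2.4.6, scipy 1.17.1 and pandas 2.3.3 were used.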

Additional observations from a re-analysis of the deposited data

Results flagged for a closer look

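For 7 pairs of gene and lineage, the change between cycling and non-cycling barcodes differed from that in epithelium by the test of the difference (edgeR, log2 ± SE). For Cad it was -3.42 ± 0.57 in T cells, -3.55 ± 0.52 in plasma-marked cells and -2.31 ± 0.57 in myeloid cells. For Ccnd1 it was 2.01 ± 0.58, adjusted p = 0.0398 in T cells, called in 6 of 13 settings that kept both mice, and -4.95 ± 0.65, adjusted p = 0.00228 in plasma-marked cells, called in 12 of 13. For Ccnd2 in plasma-marked cells it was 1.78 ± 0.42, called in 7 of 13, and for Myc in myeloid cells -1.80 ± 0.45, called in 8 of 13. The T value of Ccnd1 turned to -1.57 without members of mixed lineage or with an Epcam UMI. The plasma-marked call of Ccnd1 was lost without barcodes with a Siglech UMI. Without mouse 1 the adjusted p of Ccnd1 was 0.675 in T and 0.0139 in plasma-marked cells, that of Ccnd2 0.391 and that of Myc 0.199. Without mouse 2 they were 0.225, 0.0674, 0.117 and 0.331.

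Gated barcodes outside the comparisons also held signal. Neither Ptprc nor Epcam was seen in 24 gated barcodes of mouse 1 and 6 of mouse 2. Among barcodes removed by the filters, 10 in mouse 1 and 7 in mouse 2 had Ptprc and passed the gate, out of 1704 and 1843 removed.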

How the results depend on the processing

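Of the comparisons of single genes with another setting, 2680 kept direction and side of the threshold, 272 lost the call, 28 gained it and 54 changed sign. Without 1 of the mice, 211 kept both, 218 lost the call and 19 changed sign. Single-gene values below are log2 folds, with the contrast in brackets (cycling against non-cycling unless stated), and calls lost or gained are those that kept their sign. Where a setting changes the members, fewer or other barcodes enter by construction, and in the other settings the cause was not tested. The smallest sums (T and myeloid members) limit what low genes such as Ahcy can show. Ahcy had 4 and 1 UMIs in all T members, before any were left out. Without mouse 1 its myeloid value rests on 0 UMIs in members against 6 in non-cycling barcodes. Large negative values of Ahcy below are therefore not measured sizes. Settings on the 10 UMIs of cell cycle lists, Siglech barcodes, single lineages and the matched removal from non-cycling leukocytes were chosen after seeing the data. With T members only, Ahcy lost its call at -2.43 (leukocytes against epithelium), and in all 8 single-gene calls were lost and 1 gained. Without members of mixed lineage or with an Epcam UMI, the numbers of genes that passed were 444 (T minus epithelium), 289 (T), 371 (all leukocytes), 243 (plasma) and 175 (plasma minus epithelium), and the shares were 0% (B, mouse 1), 21.6% (T, mouse 1), 0% (mixed, mouse 1), 0% (mixed, mouse 2), 23.5% (myeloid, mouse 1), 34.0% (myeloid, mouse 2), 26.0% (plasma, mouse 2), 0.864% (members of Ptprc-positive barcodes, mouse 1) and 0.790% (members of Ptprc-positive barcodes, mouse 2), and values that changed sign were Ahcy -5.64, Cad -1.45, Cd68 -0.00070, Krt18 -6.69, Krt19 -7.89, Mat2a -0.15, Myc -0.76 and Shmt1 -4.31 (T), Ccnd1 -1.57 (T minus epithelium), Mat2a -0.055 and Mtr 0.47 (all leukocytes), Odc1 -0.95 (myeloid) and Odc1 -0.20 (plasma minus epithelium), and in all 50 single-gene calls were lost and 5 gained. With the same barcodes also left out of non-cycling leukocytes, the numbers of genes that passed were 547 (T minus epithelium), 340 (T), 255 (plasma) and 246 (plasma minus epithelium), and values that changed sign were Ahcy -5.03, Cad -1.42, Krt18 -5.59, Krt19 -5.65, Mat2a -0.15, Myc -0.74 and Shmt1 -3.60 (T), Ccnd1 -1.41 (T minus epithelium), Mat2a -0.061 and Mtr 0.33 (all leukocytes), Odc1 -0.84 (myeloid) and Odc1 -0.0058 (plasma minus epithelium), and in all 44 single-gene calls were lost and 5 gained. With mitochondrial UMIs under 10%, Ahcy lost its call at 2.02 (epithelium), and in all 6 single-gene calls were lost and 0 gained. With plasma-marked members only, values that changed sign were Cad 0.076 and Odc1 0.37 (leukocytes against epithelium), and in all 7 single-gene calls were lost and 0 gained. Without Siglech barcodes, values that changed sign were Cad -0.093 and Mat2a -0.044 (T), Cad -0.20, Ccnd1 0.044 and Tyrobp 0.41 (plasma), Odc1 -0.033 (myeloid) and Odc1 -0.17 (plasma minus epithelium), and in all 16 single-gene calls were lost and 1 gained. With a gate of 2 UMIs, the numbers of genes that passed were 286 (T), 249 (all leukocytes) and 248 (plasma), and the shares were 47.3% (T, mouse 2), 8.67% (mixed, mouse 1), 29.95% (plasma, mouse 2), 5.86% (members of Ptprc-positive barcodes, mouse 1) and 3.27% (members of Ptprc-positive barcodes, mouse 2), and values that changed sign were Cad -0.10 (T), Cad -0.035 and Mtr -0.029 (plasma) and Odc1 -0.18 (plasma minus epithelium), and in all 61 single-gene calls were lost and 0 gained. With a gate of 5 UMIs, the numbers of genes that passed were 989 (all leukocytes), 724 (plasma) and 366 (plasma minus epithelium), and the shares were 1.88% (members of Ptprc-positive barcodes, mouse 1) and 1.11% (members of Ptprc-positive barcodes, mouse 2), and values that changed sign were Cad -0.26 and Mat2a -0.055 (T), Cad -0.072 (plasma), Odc1 0.095 (leukocytes against epithelium) and Odc1 -0.0029 (plasma minus epithelium), and in all 9 single-gene calls were lost and 1 gained. With at least 10 UMIs of the cell cycle lists, the numbers of genes that passed were 1006 (all leukocytes) and 849 (plasma), and the shares were 22.0% (myeloid, mouse 1), 37.4% (plasma, mouse 1), 2.08% (members of Ptprc-positive barcodes, mouse 1) and 1.28% (members of Ptprc-positive barcodes, mouse 2), and values that changed sign were Cad -0.0063 and Mat2a 0.070 (plasma) and Mtr 0.043 (all leukocytes), and in all 3 single-gene calls were lost and 1 gained. Without a filter on low counts, the numbers of genes that passed were 1869 (all leukocytes), 681 (myeloid), 812 (plasma) and 979 (plasma minus epithelium), and values that changed sign were Mat2a -0.055 (all leukocytes) and Odc1 -0.019 (myeloid), and in all 6 single-gene calls were lost and 3 gained. With DESeq2, the numbers of genes that passed were 1347 (T), 1161 (all leukocytes), 807 (myeloid minus epithelium) and 996 (plasma minus epithelium), and values that changed sign were Mat2a 0.0015 (myeloid), and in all 4 single-gene calls were lost and 3 gained. When the model held the compared classes alone, the numbers of genes that passed were 298 (all leukocytes), 15 (myeloid minus epithelium) and 143 (plasma minus epithelium), and values that changed sign were Mat2a 0.056 (myeloid) and Mat2a 0.012 (plasma), and in all 36 single-gene calls were lost and 2 gained. With at least 2 Ptprc UMIs, values that changed sign were Myc -0.013 (all leukocytes), and in all 10 single-gene calls were lost and 0 gained. With the mouse as replicate block, the numbers of genes that passed were 1755 (T minus epithelium), 1421 (T), 1811 (all leukocytes), 629 (plasma), 793 (myeloid minus epithelium) and 1108 (plasma minus epithelium), and values that changed sign were Odc1 -0.046 (myeloid), and in all 0 single-gene calls were lost and 4 gained. Without immunoglobulin genes, values that changed sign were Odc1 -0.17 (plasma minus epithelium), and in all 8 single-gene calls were lost and 0 gained. Without 1 of the mice, the numbers of genes that passed were 13 to 34 (T minus epithelium), 104 to 194 (leukocytes against epithelium), 150 to 185 (T), 755 to 2121 (epithelium), 105 to 173 (all leukocytes), 89 to 100 (myeloid), 130 to 217 (plasma), 0 to 1 (myeloid minus epithelium) and 3 to 4 (plasma minus epithelium), and single genes ranged as Ahcy -3.02 to -1.42, Ccnd2 -0.87 to 0.14 and Odc1 -0.49 to 0.19 (leukocytes against epithelium), Ahcy -0.12 to 1.78, Cad -0.30 to -0.060, Mat2a -0.17 to -0.010 and Myc -0.062 to 0.50 (T), Ahcy 1.93 to 2.41, Ccnd3 -0.58 to 0.62 and Odc1 -0.10 to 0.94 (epithelium), Ahcy -5.95 to 1.16, Mtr -0.37 to 0.89 and Odc1 -1.68 to 0.84 (myeloid), Ahcy -1.13 to 1.47 (plasma minus epithelium), Cad -0.047 to 0.12, Mat2a -0.19 to 0.040 and Mtr -0.54 to 0.52 (plasma) and Mtr -2.58 to 0.20 and Odc1 -2.57 to 0.71 (myeloid minus epithelium). The paired fit with the mouse as replicate block changed the sign of the value named above and the counts given, and the calls it gained are in the report.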
